A study of Mus musculus with 5 samples.

Results

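The genes described here were the EGF family ligands Areg, Ereg, Btc, Hbegf and Tgfa, the receptors Egfr, Erbb2, Erbb3 and Met, and the receptor inhibitor Errfi1. Members were chosen by name, and every probe that carried a member's name on the array was used, which gave 20 probes for 10 genes among 56605 probes with 37074 gene names. Ligands had 8 probes, receptors had 10 and Errfi1 had 2. The study compared tumor endothelial cells (TECs) with liver sinusoidal endothelial cells (LSECs), the fenestrated endothelium of the healthy liver, to find what sets tumor vessels apart in hepatocellular carcinoma. There were 5 arrays, with 1 array for each condition, so no difference between single conditions had a replicate check. They held LSECs of mouse liver, TECs of tumors that 3 hepatoma lines had formed in the mouse liver (HAK-1B, Hepa1-6 and KYN-2), and Hepa1-6 cells from culture. Hepa1-6 is a mouse line, and the other two are of human origin. TECs were the CD31+ cells that magnetic beads bound after the tumors had been digested. The study checked their purity by flow cytometry, held contamination by cancer cells to be inevitable and took cancer cell-related genes out of its list. No such genes were taken out here, and the arrays are read as a mixed cell fraction. The labels give the strain C57BL/6 for the LSECs and all 3 TECs and C57L for the Hepa1-6 cells, whereas the methods describe females of C57BL/6 or of a nude strain (BALB/c nu/nu), bought at 6 weeks of age. The labels give neither the age nor the number of mice behind an array. No treatment is named for any of the 5 samples.

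EGF family ligands are made as membrane proteins and are cut free by sheddases such as ADAM17. Areg, Tgfa, Btc, Ereg and Hbegf bind EGFR, and some of them also bind ERBB4. ERBB2 has no known ligand and works as a partner of the others, and ERBB3 binds neuregulins and has little kinase activity of its own. MET is the receptor of hepatocyte growth factor (HGF) and shares signaling partners with the ErbB receptors. Both receptor groups feed the RAS and ERK cascade, which in turn induces inhibitors such as Errfi1 (also called MIG6), a protein that binds the kinase domain of EGFR and blocks it. In the liver, these pathways are known for hepatocyte growth and regeneration.

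Levels are given as normalized log2 signal, in which a step of 1 is a doubling of the fluorescence of a probe. They compare arrays for the same probe and do not compare different genes. Ratios are differences of these log2 levels. Where 3 values are given for the TECs, the order is HAK-1B, Hepa1-6, KYN-2. The methods call a difference by its size alone: for a higher call the ratio must reach 1.5 and the Z-score 2, and for a lower call they must be no more than 0.66 and -2. The Z-score gives the distance of a log2 ratio from the mean over all kept probes, in SDs. On these arrays, this meant at least 7.25-fold in HAK-1B TECs, 11.4-fold in Hepa1-6 TECs, 6.79-fold in KYN-2 TECs and 39.8-fold in Hepa1-6 cells for a higher call. A gene was called when any of its probes was. Members had more probes per gene than the array as a whole, which had 1.53, and this favors calls among them.

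Relative to LSECs, Areg and Met were higher in all 3 TECs by the rule of size, and no other member was. In all 3 TECs, 0.65% of all genes were called higher on 1 probe and 1.2% were called lower. In HAK-1B TECs, 3 of the 10 members were called higher (Areg, Ereg, Met), where 3.6% of all genes kept were, and 1 was called lower (Hbegf), where 4.51% were. In Hepa1-6 TECs, 2 were called higher (Areg, Met) against 5.38% of all genes, and 0 were called lower against 2.68%. In KYN-2 TECs, 3 were called higher (Areg, Erbb3, Met) against 4.5% of all genes, and 0 were called lower against 3.52%. In cultured Hepa1-6 cells, 3 were called higher than in LSECs (Areg, Egfr, Met) against 2.99% of all genes, and 0 were called lower against 5.23%. The filter for a flag of presence on at least 1 array of the pair kept 9, 10, 9 and 9 of the 10 genes in these comparisons. All of them share the single LSEC array. Over the brightest probe of each member, the median log2 ratio was 0.22 in HAK-1B TECs, 1.51 in Hepa1-6 TECs and 0.13 in KYN-2 TECs, and over all probes kept it was 0.05, 0.05 and -0.02.

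**Figure D1:**
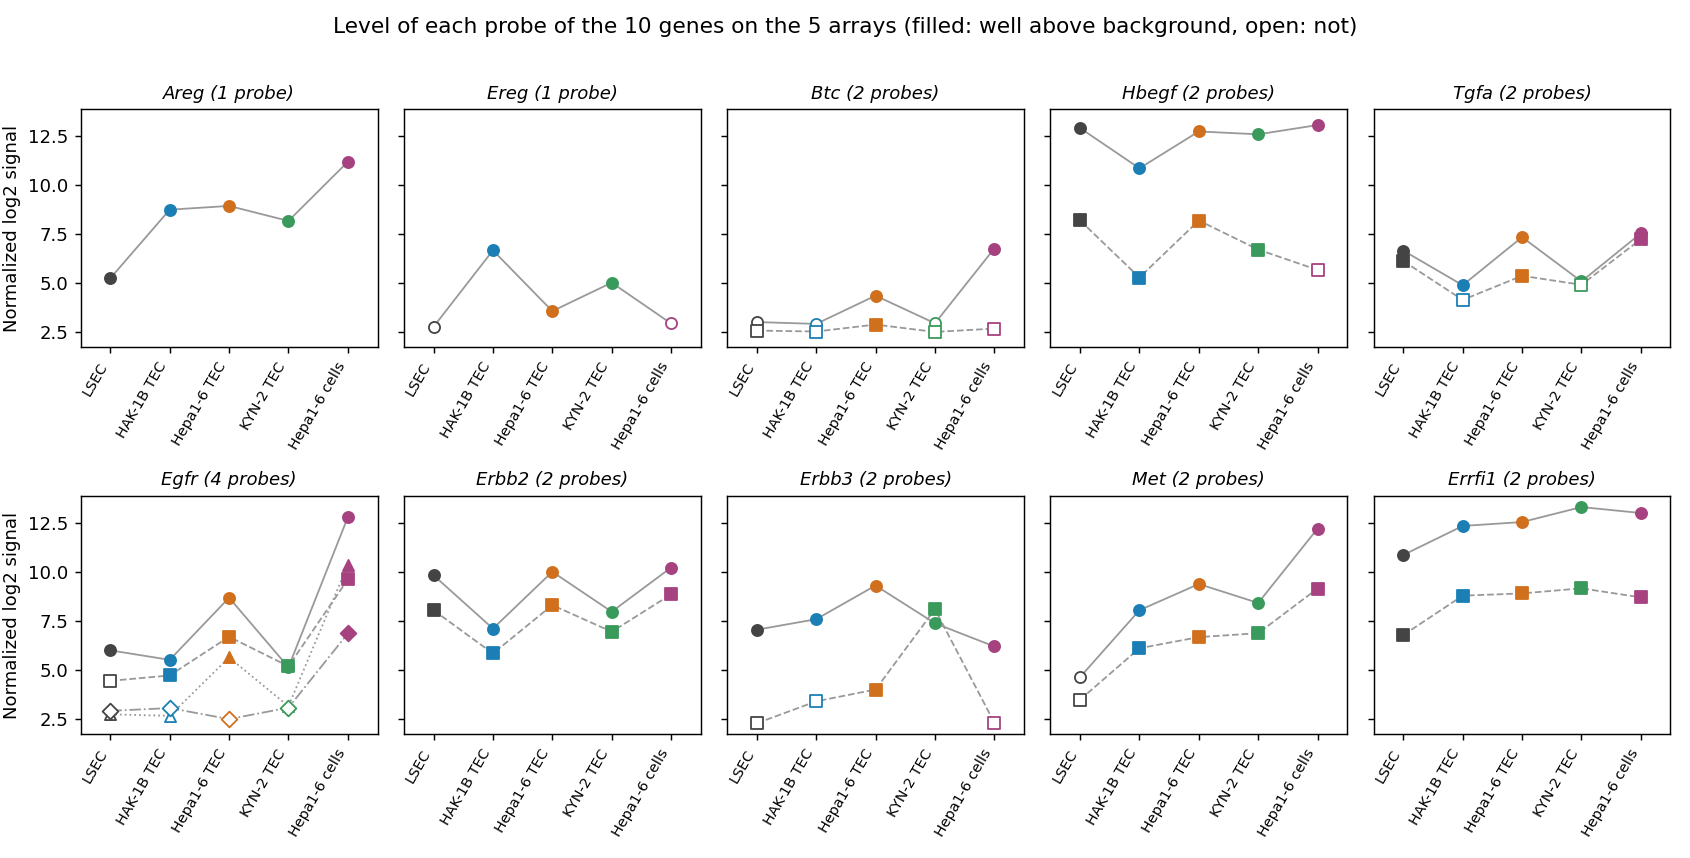
Normalized log2 signal (vertical axis) of every probe of the 10 genes on the 5 arrays (horizontal axis). Each marker is 1 probe on 1 array, lines only join the markers of a probe, and open markers were not well above background. Areg lay at 5.25 in LSECs and between 8.17 and 8.94 in the TECs, and Errfi1 lay lowest in LSECs on both of its probes.

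When the 3 TECs were treated as 1 group against the LSEC array with limma, 0% of 42112 probes passed an adjusted p of 0.05, and no member did. At an unadjusted p under 0.05 there were 3581 probes. This fit had 2 residual degrees of freedom, and the lone LSEC array was assumed to vary as the TECs did. All TECs shared 1 slide that did not hold the LSECs, and the Hepa1-6 cells were on yet another slide. Group and slide thus cannot be told apart, neither for TECs against LSECs nor in the comparisons with Hepa1-6 cells.

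The endothelial arrays carried endothelial RNA together with RNA of other cells. All 10 pan-endothelial markers and all 10 LSEC markers were well above background on the 4 endothelial arrays, and 2 and 1 of them were on the array of Hepa1-6 cells. The summed normalized signal of the LSEC markers was 910972 in LSECs and between 97343 and 125744 in the TECs. All 10 macrophage markers were also well above background on these 4 arrays, with sums of 678853 in LSECs and between 261344 and 428723 in the TECs. Of the 10 neutrophil markers, 7 were well above background in LSECs and 10, 10 and 8 in the TECs, and their median level was 6.53 in LSECs and 12.53, 10.79 and 8.96 in the TECs. Of the 10 stellate cell and fibroblast markers, 7 were well above background in LSECs and 9, 10 and 9 in the TECs, with sums of 12912 in LSECs and 23992, 47540 and 35942 in the TECs. Their median log2 ratio to LSECs was 0.63, 2.26 and 1.26, and the collagen gene Col1a1 was called higher in all 3 TECs (at least 26.7-, 71.1- and 112-fold). The part of stellate cells and fibroblasts in the values of the members was not tested. In bulk samples such as these, fewer cells of a type and less RNA per cell cannot be told apart. The share of probes well above background was 78.1% in Hepa1-6 TECs and between 44.6% and 57.6% on the other arrays. The lowest level that was well above background also differed. It was 2.85 in Hepa1-6 TECs, 4.68 in LSECs, 4.28 in HAK-1B TECs, 4.65 in KYN-2 TECs and 5.96 in Hepa1-6 cells. Counts of genes well above background are thus not comparable between these arrays. Spots repeated within an array had a median coefficient of variation between 2.62% and 3.08%.

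Among the ligands, Areg was higher in every TEC and highest in the cultured tumor cells. Areg encodes amphiregulin, an EGFR ligand that is induced in injured epithelium and is also made by immune cells. Its level was 5.25 in LSECs, 8.75 in HAK-1B TECs, 8.94 in Hepa1-6 TECs, 8.17 in KYN-2 TECs and 11.19 in Hepa1-6 cells, and the probe was well above background on each array. All 3 TECs thus lay above the LSEC array and below the cultured cells, and the TECs spanned 0.77 among themselves. Relative to LSECs, Areg was 11.3-fold higher in HAK-1B TECs, 12.9-fold in Hepa1-6 TECs, 7.59-fold in KYN-2 TECs and 61.4-fold in Hepa1-6 cells. The mean log2 ratio of the 3 TECs was 3.37 ± 0.40 (SD, n = 3), with an adjusted p of 0.443 in limma. In Hepa1-6 TECs, Areg lay close to the size needed (a log2 ratio of 3.69 against 3.51), and there it was no longer called with scaling to the 75th percentile or with normalization by pair. In KYN-2 TECs it was no longer called with normexp background correction.

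The value of Areg rests on 1 probe, which is shown because it lies inside the coding sequence, and it reads as an open frame. It covers mm9 chr5:91570090-91570149 on the plus strand, and the letters are the probe as deposited.
Areg probe: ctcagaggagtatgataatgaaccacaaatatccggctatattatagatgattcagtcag

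Ereg was highest in HAK-1B TECs and was not measured above background in LSECs. Ereg encodes epiregulin, a ligand of EGFR and ERBB4, and its gene lies beside Areg and Btc on chromosome 5. Its level was 6.67 in HAK-1B TECs, 5.02 in KYN-2 TECs and 3.57 in Hepa1-6 TECs, and the probe was not well above background in LSECs (2.77) or in Hepa1-6 cells (2.94). Such probes have only a bound, taken from the lowest signal that was well above background on the dim array or from the probe's own value where that was higher. Ereg was thus at least 3.98-fold higher in HAK-1B TECs than in LSECs, which is below the size that the rule asks for, and at least 1.27-fold higher in KYN-2 TECs. For Hepa1-6 TECs no bound could be given. The order of the Hepa1-6 and KYN-2 TECs depends on the scaling, because the log2 ratios of Ereg to LSECs were 0.80 and 2.25 as given here and 2.39 and 2.31 with scaling to the 75th percentile.

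Some neutrophil markers were also called higher in each TEC. Of the 10 markers, 9, 6 and 2 were called higher in the TECs than in LSECs and 0 were called lower, with median log2 ratios of 4.92, 4.35 and 0.88. Their summed signal was 91601 in LSECs and 213573, 73870 and 79278 in the TECs, and it was carried in LSECs by Csf3r, which had a level of 16.45 there and of 15.22 in the cultured tumor cells. The HAK-1B array was highest for Ereg, for the median and for the sum. The part of these cells in the values of Areg and Ereg was not tested.

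Btc was at or near background on the endothelial arrays. Btc encodes betacellulin, which binds EGFR and ERBB4. Its brighter probe was well above background in Hepa1-6 TECs (4.36) and in Hepa1-6 cells (6.76), and not in LSECs (3.01), HAK-1B TECs (2.92) or KYN-2 TECs (2.95). The cultured cells were at least 4.24-fold above LSECs on this probe. The dimmer probe was well above background in Hepa1-6 TECs alone (2.88) and lay between 2.51 and 2.68 elsewhere, on arrays with a higher limit for being well above background.

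Hbegf was a bright ligand that was lower in HAK-1B TECs. Hbegf encodes heparin-binding EGF, a ligand of EGFR and ERBB4 that macrophages and vascular cells make. On its brighter probe, the level was 12.91 in LSECs, 10.86 in HAK-1B TECs, 12.74 in Hepa1-6 TECs, 12.59 in KYN-2 TECs and 13.06 in Hepa1-6 cells. The HAK-1B TECs stood apart, and the other arrays lay between 12.59 and 13.06. On the dimmer probe, the HAK-1B TECs were again lowest (5.28 against 8.19 in LSECs, 7.52-fold lower), and this was the only lower call among the members relative to LSECs. The dimmer probe also separated KYN-2 TECs (6.71, a log2 ratio of -1.48), where the brighter probe gave -0.32, so the size of that difference depends on the probe.

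Tgfa, the ligand TGF-alpha, was lower in HAK-1B and KYN-2 TECs by both probes without passing the rule. On the brighter probe its level was 6.66 in LSECs, 4.89 in HAK-1B TECs, 7.34 in Hepa1-6 TECs, 5.08 in KYN-2 TECs and 7.54 in Hepa1-6 cells. The Hepa1-6 TECs lay with the tumor cells and above LSECs. On the dimmer probe, which was not well above background in HAK-1B and KYN-2 TECs, they lay below LSECs (5.37 against 6.13), so the direction in Hepa1-6 TECs differs between probes. The bounds on this probe were at least 3.60-fold lower in HAK-1B TECs and at least 2.32-fold lower in KYN-2 TECs. Only this dimmer probe of Tgfa was assigned to a RefSeq transcript.

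**Figure D2:**
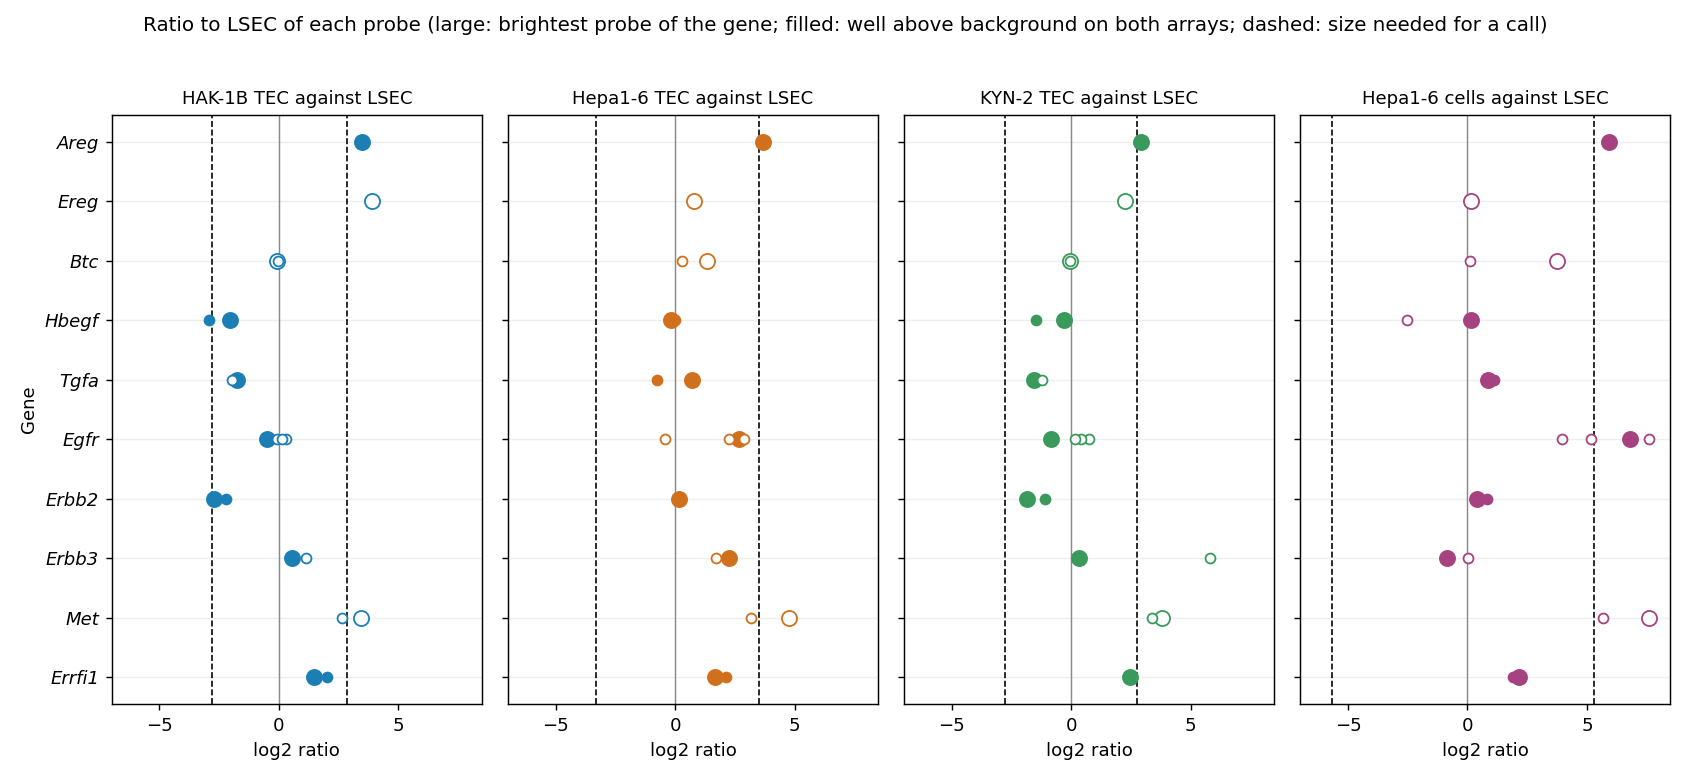
Log2 ratio to LSEC (horizontal axis) of each probe of the 10 genes (vertical axis) in 3 TECs and in cultured Hepa1-6 cells, 1 panel for each. Large markers are the brightest probe of a gene, filled markers were well above background on both arrays, and dashed lines are the sizes needed for a call. Areg passed the upper line in each panel, with log2 ratios of 3.50, 3.69, 2.92 and 5.94, and Met passed it with open markers.

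Among the receptors, Met was higher in every TEC by both probes, and on neither was it well above background in LSECs. On its brighter probe the level was 4.63 in LSECs, 8.05 in HAK-1B TECs, 9.39 in Hepa1-6 TECs, 8.42 in KYN-2 TECs and 12.21 in Hepa1-6 cells. Met was therefore at least 10.3-fold higher in HAK-1B TECs, 26.1-fold in Hepa1-6 TECs, 13.4-fold in KYN-2 TECs and 185-fold in Hepa1-6 cells. On this probe the Hepa1-6 TECs were the highest of the TECs, and the cultured cells exceeded all of them. On the second probe the levels were 3.48, 6.11, 6.67, 6.88 and 9.15 in the same order of arrays, with bounds of at least 2.69-fold, 3.99-fold, 4.59-fold and 22.3-fold. This probe passed the rule in KYN-2 TECs and in Hepa1-6 cells, though its bounds there were below the sizes that the rule asks for. It placed KYN-2 TECs highest among the TECs. In limma, which used the LSEC values that were not well above background, both probes had an adjusted p of 0.443. Where a probe had to be well above background on both arrays, Met could not be called in any comparison with LSECs, and with normexp it was no longer called in HAK-1B TECs.

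The second Met probe is shown because it lies in the coding sequence, near the start of the transcript, whereas the brighter probe lies near the transcript's end. It covers mm9 chr6:17442312-17442371 on the plus strand.
Met probe: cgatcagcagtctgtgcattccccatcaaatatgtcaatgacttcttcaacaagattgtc

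Egfr was highest in the cultured tumor cells on all 4 probes, and among the TECs it was highest in Hepa1-6 TECs on 3 of them. EGFR is the receptor for all 5 ligands described here. On its brightest probe, the level was 6.00 in LSECs, 5.52 in HAK-1B TECs, 8.69 in Hepa1-6 TECs, 5.14 in KYN-2 TECs and 12.79 in Hepa1-6 cells. The cultured cells were 111-fold above LSECs. The Hepa1-6 TECs were 6.44-fold above LSECs, which did not reach the size needed but did where both arrays had to be well above background, and the HAK-1B and KYN-2 TECs were 1.40-fold and 1.82-fold below. Of the 3 other Egfr probes, 2 also had Hepa1-6 TECs highest among the endothelial arrays (6.69 and 5.64), and the last one was not well above background on any endothelial array. None of these 3 probes was well above background in LSECs.

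The Egfr probe that lies in the coding sequence is shown because it reads the extracellular part of the receptor rather than the end of a transcript. It covers mm9 chr11:16783545-16783604 on the plus strand, and its levels were 4.44 in LSECs (not well above background), 4.72, 6.69 and 5.19 in the TECs, and 9.62 in the tumor cells.
Egfr probe: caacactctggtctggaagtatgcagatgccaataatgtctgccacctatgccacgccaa

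Erbb2, the partner receptor without a ligand of its own, was lowest in HAK-1B TECs on both probes, as Hbegf was. The brighter probe read 9.83 in LSECs, 7.11 in HAK-1B TECs, 10.01 in Hepa1-6 TECs, 7.97 in KYN-2 TECs and 10.22 in Hepa1-6 cells. Erbb2 was thus 6.59-fold lower in HAK-1B TECs and 3.63-fold lower in KYN-2 TECs, both short of the size needed, while Hepa1-6 TECs (a log2 ratio of 0.18) and tumor cells (0.39) lay near LSECs. The second probe gave log2 ratios of -2.21, 0.26, -1.10 and 0.80 in the same order. In HAK-1B TECs, Erbb2 was called lower with normexp, where both arrays had to be well above background, and with no filter on flags.

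Erbb3 gave different answers on its 2 probes. The brighter probe read 7.05 in LSECs, 7.59 in HAK-1B TECs, 9.31 in Hepa1-6 TECs, 7.38 in KYN-2 TECs and 6.20 in Hepa1-6 cells, and was thus highest in Hepa1-6 TECs (4.77-fold above LSECs, not called). The other probe was well above background in KYN-2 TECs (8.10) and Hepa1-6 TECs (4.0), and not in LSECs (2.28), HAK-1B TECs (3.40) or Hepa1-6 cells (2.31). On this probe KYN-2 TECs were at least 10.7-fold above LSECs and carried the call, where the brighter probe gave a log2 ratio of 0.33. This probe covers the last codons of the coding sequence (mm9 chr10:128006424-128006483, minus strand) and ends with the stop codon.
Erbb3 probe: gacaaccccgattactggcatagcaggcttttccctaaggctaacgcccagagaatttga

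Errfi1 was higher in all 3 TECs and in Hepa1-6 cells by both probes, and it passed the rule in none of them. In KYN-2 TECs it was called with normexp, with no filter on flags, and where both arrays had to be well above background. On the brighter probe its level was 10.87 in LSECs, 12.35 in HAK-1B TECs, 12.55 in Hepa1-6 TECs, 13.31 in KYN-2 TECs and 13.01 in Hepa1-6 cells. The LSEC array was the lowest of the 5, and the other 4 lay between 12.35 and 13.31. The folds over LSECs were 2.79, 3.21, 5.45 and 4.41. The second probe gave 4.04-, 4.37-, 5.23- and 3.80-fold, with levels of 6.78 in LSECs and between 8.70 and 9.17 elsewhere. The mean log2 ratio of the 3 TECs was 1.87 ± 0.51 (SD, n = 3) and 2.18 ± 0.19 (SD, n = 3) for the 2 probes, with adjusted p of 0.554 and 0.464 in limma. All 10 of these levels were well above background, so no bound was needed.

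Areg, Met and Errfi1 lay above LSECs on all 4 other arrays, well above background there, on each of their probes, so the 250 bases before their start sites are shown. Sequences were taken from RefSeq (GRCm38.p6), in which 7 of the 10 members had a start site window among 32851 windows of the same length. Both strands were searched for 6 motifs, and matches are in capitals. The cyclic AMP response element, TGACGTCA, stood in 1.55% of all windows. The motif of the AP-1 factors, with the letters TGANTCA, stood in 6.75%. The TATAAA motif was found in 12.4% and the hypoxia response core ACGTG in 16.6%. The GC box was searched as GGGCGG (in 32.7% of windows) and the CCAAT motif by these letters (33.8%). The Areg window (chr5:91139349-91139598, plus strand) held the cyclic AMP element 61 bases and TATAAA 31 bases before the start. The Met window (chr6:17463707-17463956, plus strand) held the AP-1 motif at 54 bases and the hypoxia response core in both directions at 126 and 125 bases, with 3 GC boxes and no match to the TATAAA or cyclic AMP motifs. The window of the second Errfi1 start site (chr4:150854820-150855069, plus strand) held the cyclic AMP element at 51 bases, overlapped by the hypoxia response core on the other strand, and TATAAA at 28 bases. The window of its first start site held none of the 6 motifs. These are matches of letters, and no binding was measured.
Areg upstream: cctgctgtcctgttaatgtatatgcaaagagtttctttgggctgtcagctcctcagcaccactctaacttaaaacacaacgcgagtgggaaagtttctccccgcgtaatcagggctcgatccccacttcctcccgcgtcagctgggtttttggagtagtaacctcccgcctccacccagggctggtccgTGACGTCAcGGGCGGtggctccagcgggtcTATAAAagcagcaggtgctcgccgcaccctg
Met upstream: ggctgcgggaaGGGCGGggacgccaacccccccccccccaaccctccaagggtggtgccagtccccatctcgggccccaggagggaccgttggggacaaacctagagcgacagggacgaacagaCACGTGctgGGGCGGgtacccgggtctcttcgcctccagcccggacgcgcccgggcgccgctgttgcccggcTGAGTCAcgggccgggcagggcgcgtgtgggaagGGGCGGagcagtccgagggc
Errfi1 upstream: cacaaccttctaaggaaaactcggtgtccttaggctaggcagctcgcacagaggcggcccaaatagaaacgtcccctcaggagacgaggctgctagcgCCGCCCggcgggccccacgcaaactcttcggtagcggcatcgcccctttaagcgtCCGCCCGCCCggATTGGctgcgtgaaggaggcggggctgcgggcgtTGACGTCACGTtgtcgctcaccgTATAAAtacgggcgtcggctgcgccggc

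The cultured Hepa1-6 cells allow the Hepa1-6 TECs to be set beside the tumor line itself, though on a different slide, so that sample and slide cannot be told apart. Relative to these cells, 1 member was called lower in Hepa1-6 TECs (Egfr, on 3 of its 4 probes), where 2.2% of all genes were called lower, and 0 were called higher, where 5.52% were. On 3 Egfr probes, the signal in Hepa1-6 TECs was 5.81%, 13.2% and 3.80% of that in the cultured cells, and the probe at 13.2% was not called. The last Egfr probe was called (20.7-fold lower), though it was not well above background in Hepa1-6 TECs. Its bound there was at least 16.2-fold lower, just short of the 16.4-fold needed for a lower call. For Met the signal in Hepa1-6 TECs was 14.1% and 17.9% of that in the cultured cells, and for Areg it was 21.0%. Errfi1 (72.7% and 115%), Erbb2 (86.3% and 68.6%) and the brighter probes of Tgfa (87.5%) and Hbegf (79.8%) were near the level of the tumor cells, while Erbb3 lay above it on the brighter probe (8.63-fold). The dimmer probes of Tgfa and Hbegf gave other values. Tgfa was at 27.4% there, and Hbegf was at least 4.70-fold higher in Hepa1-6 TECs than in the cells, in which this probe was not well above background, so the direction of Hbegf differs between probes.

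RNA of other cells in the Hepa1-6 TECs was followed with probes that were bright in Hepa1-6 cells and not well above background on the other endothelial arrays. Of these 31 probes, 96.8% were well above background in Hepa1-6 TECs, at a median of 9.72% of the signal in the cultured cells, with quartiles of 2.50% and 28.0%. The limit for being well above background was lowest in Hepa1-6 TECs, so this share and the counts below do not compare arrays evenly. No member was among these probes, which had to be in the top 10% of Hepa1-6 cells. An Egfr probe that was not well above background in LSECs, HAK-1B TECs or KYN-2 TECs (10.35 in Hepa1-6 cells) missed that cut. All 10 cholangiocyte and epithelial markers were well above background in Hepa1-6 TECs, 5 in LSECs, 6 in HAK-1B TECs, 7 in KYN-2 TECs and 6 in Hepa1-6 cells, and they summed to 94045, 1541, 1056, 6624 and 240193. On their brightest probes, Areg, Btc, Tgfa, Egfr, Erbb2, Erbb3 and Met were also highest among the endothelial arrays in Hepa1-6 TECs, though Erbb2 by a log2 ratio of only 0.18 over LSECs. Areg was close in HAK-1B TECs (8.75 against 8.94). With normalization by pair its log2 ratio to LSECs was larger in HAK-1B TECs (3.60) than in Hepa1-6 TECs (3.28). On their other probes, Tgfa was highest in LSECs, and Met and Erbb3 were highest in KYN-2 TECs. The part of tumor cells and epithelial cells in these values was not tested. For HAK-1B and KYN-2 TECs, the tumor line itself was not measured on these arrays, and Areg and Met were higher there as well.

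**Figure D3:**
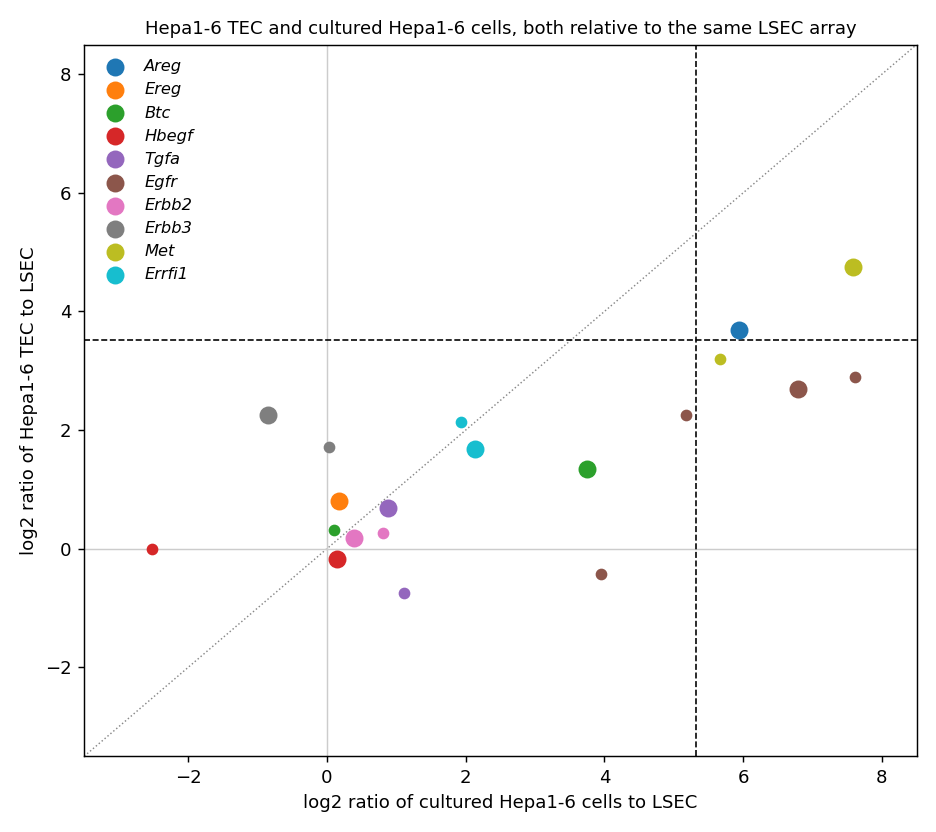
Log2 ratio to LSEC of the 20 probes in cultured Hepa1-6 cells (horizontal axis) and in Hepa1-6 TECs (vertical axis), which share the LSEC array. Colors are genes, large markers are the brightest probe of a gene, dashed lines are the sizes needed for a higher call, and the dotted line marks equal ratios. Areg and the brighter Met probe lie past both dashed lines, and the brightest Egfr probe lies at 6.79 in the cells and 2.69 in the TECs.

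Other genes of the same pathways were read from 7 lists with 57 genes, which were set up by role with earlier results of these data known. They had 121 probes, more per gene than the 1.53 of the array as a whole, and this favors calls among them. Of the genes kept, 3 were called higher and 2 lower of 56 in HAK-1B TECs, 8 and 0 of 56 in Hepa1-6 TECs, 4 and 1 of 55 in KYN-2 TECs, and 4 and 3 of 53 in Hepa1-6 cells. The shares called higher were thus 5.36%, 14.3%, 7.27% and 7.55%, beside the 3.6%, 5.38%, 4.5% and 2.99% of all genes given above. For these reasons of choice and probe number, the difference between the shares is a description and no test of the lists. Over the lists, the median log2 ratio was 0.26, 0.19 and 0.16 in the TECs.

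Among the 6 other EGF family ligands, 1 was called higher in HAK-1B TECs (Nrg1) and 1 in KYN-2 TECs (Nrg4). Nrg1, a neuregulin that binds ERBB3 and ERBB4, reached a log2 ratio of 3.62 in HAK-1B TECs and 5.87 in Hepa1-6 cells on the probe that was called, and its brightest probe gave 2.77 and 4.84. Nrg4, an ERBB4 ligand, did not pass background in LSECs. Its brightest probe was at least 5.31-fold higher in KYN-2 TECs, which is below the size that the rule asks for. The remaining ErbB receptor, Erbb4, lay between 10.35 and 11.68 on the 4 endothelial arrays and was not called. Of the 6 sheddases and iRhoms, 0 were called in any TEC, and the largest mean log2 ratios over the TECs were those of Rhbdf2 (1.11 ± 0.42, SD, n = 3), which guides ADAM17 to the cell surface, and Adam12 (-1.10 ± 0.95, SD, n = 3).

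The HGF side of Met gave calls in Hepa1-6 TECs for the most part. Of 10 genes, 3 were called higher there (Hgfac, Mst1r, Plxnb1) and 0 in the other TECs. Hgfac, the protease that activates HGF, was 14.2-fold higher, and Plxnb1, a semaphorin receptor that associates with MET, was 16.8-fold higher. In cultured Hepa1-6 cells both were higher still relative to LSECs (21.4-fold and 48.5-fold), and Plxnb1 was called higher there. Mst1r, the receptor RON and closest relative of MET, was at least 20.6-fold higher in Hepa1-6 TECs than in LSECs and was not well above background in Hepa1-6 cells. Hgf itself was not called in any TEC, with log2 ratios of -0.11, -1.13 and -1.22 on its brightest probe. Another Hgf probe, also well above background on the 4 endothelial arrays, gave 1.11, 0.55 and 0.62, so the direction differs between probes. In Hepa1-6 cells, Hgf was not well above background and lay at least 7.46-fold below LSECs on the brightest probe. Spint2, an inhibitor of HGF activation, was called lower in HAK-1B and KYN-2 TECs on 1 of 3 probes. Its bounds there were at least 6.79-fold and 5.25-fold, below the 6.91-fold and 6.77-fold needed for a lower call. Its brightest probe gave log2 ratios of -0.56 and 0.21. Hepatocyte markers, of which 9 were on the array, were well above background for 8 in LSECs, for 4, 9 and 8 in the TECs and for 4 in Hepa1-6 cells. Their sums were 38119 in LSECs, 1231, 69304 and 1937 in the TECs and 35641 in Hepa1-6 cells. The part of hepatocytes and of tumor cells in the calls in Hepa1-6 TECs was not tested.

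Among the 12 adaptors and ubiquitin ligases, Eps8 was called higher in all 3 TECs and Cblc in Hepa1-6 TECs, and 0 were called lower in any TEC. Eps8, an EGFR substrate that acts on actin, had levels of 5.49 in LSECs, 10.46 in HAK-1B TECs, 10.68 in Hepa1-6 TECs, 10.29 in KYN-2 TECs and 7.22 in Hepa1-6 cells on its brightest probe. All 3 TECs lay above both the LSECs and the tumor cells, with a mean log2 ratio to LSECs of 4.99 ± 0.20 (SD, n = 3), and 2 of its 3 probes passed the rule in each TEC. The dimmer of these was not well above background in LSECs, with bounds of at least 2.70-fold, 4.04-fold and 2.54-fold. Cblc, a ubiquitin ligase of epithelial cells, had a log2 ratio of 4.33 in Hepa1-6 TECs, of -1.47 and -0.77 in the other TECs and of 3.53 in Hepa1-6 cells.

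Of the 13 feedback inhibitors other than Errfi1, 3 lay above LSECs in all 3 TECs and 7 lay below on their brightest probes. Those above were Dusp5, an ERK phosphatase (log2 ratios of 1.68, 0.80 and 1.41), Spred2 (0.22, 1.46 and 0.57) and Socs4 (0.56, 0.02 and 0.21). Those below included Lrig2 (-2.74, -2.56 and -1.88), Dusp4 (-2.44, -1.05 and -1.29) and Lrig3 (-0.41, -1.14 and -0.73). Spry1 (-1.32, -0.07 and -0.08), Socs5 (-1.22, -0.29 and -0.87), Spry2 and Spry4 also lay below. In HAK-1B TECs 1 was called lower (Spry4, at least 12.4-fold), and 0 were called higher in any TEC. Their median log2 ratio was -0.82 in HAK-1B TECs, -0.09 in Hepa1-6 TECs and -0.53 in KYN-2 TECs. Spry2 had log2 ratios of -0.82, -1.96 and -0.06 in the TECs and was not well above background in Hepa1-6 cells, at least 20.2-fold below LSECs. Spry2 and Spry4 are Sprouty proteins, which limit RAS and ERK signaling.

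Of the 9 ERK target genes, Fosl1 was called higher in all 3 TECs, Etv4 in Hepa1-6 and KYN-2 TECs and Phlda1 in Hepa1-6 TECs, and 0 were called lower in any TEC. Fosl1, which encodes the AP-1 protein FRA1, stayed below the background limit in LSECs. Its bounds were at least 3.53-fold, 4.81-fold and 4.03-fold in the TECs, all below the sizes that the rule asks for. In Hepa1-6 cells its level was 11.29, at least 97.8-fold above LSECs, and in the TECs it lay between 6.50 and 6.94. Etv4, an ETS factor, had log2 ratios of 2.74, 7.02 and 3.45 in these TECs and 7.27 in Hepa1-6 cells. Phlda1 had log2 ratios of 2.72, 4.01 and 2.71 in the TECs and 3.89 in Hepa1-6 cells. Fos, an immediate early gene of the same list, had log2 ratios of -0.57, -1.42 and -0.52 in the TECs and was called lower in Hepa1-6 cells (-8.13).

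**Figure D4:**
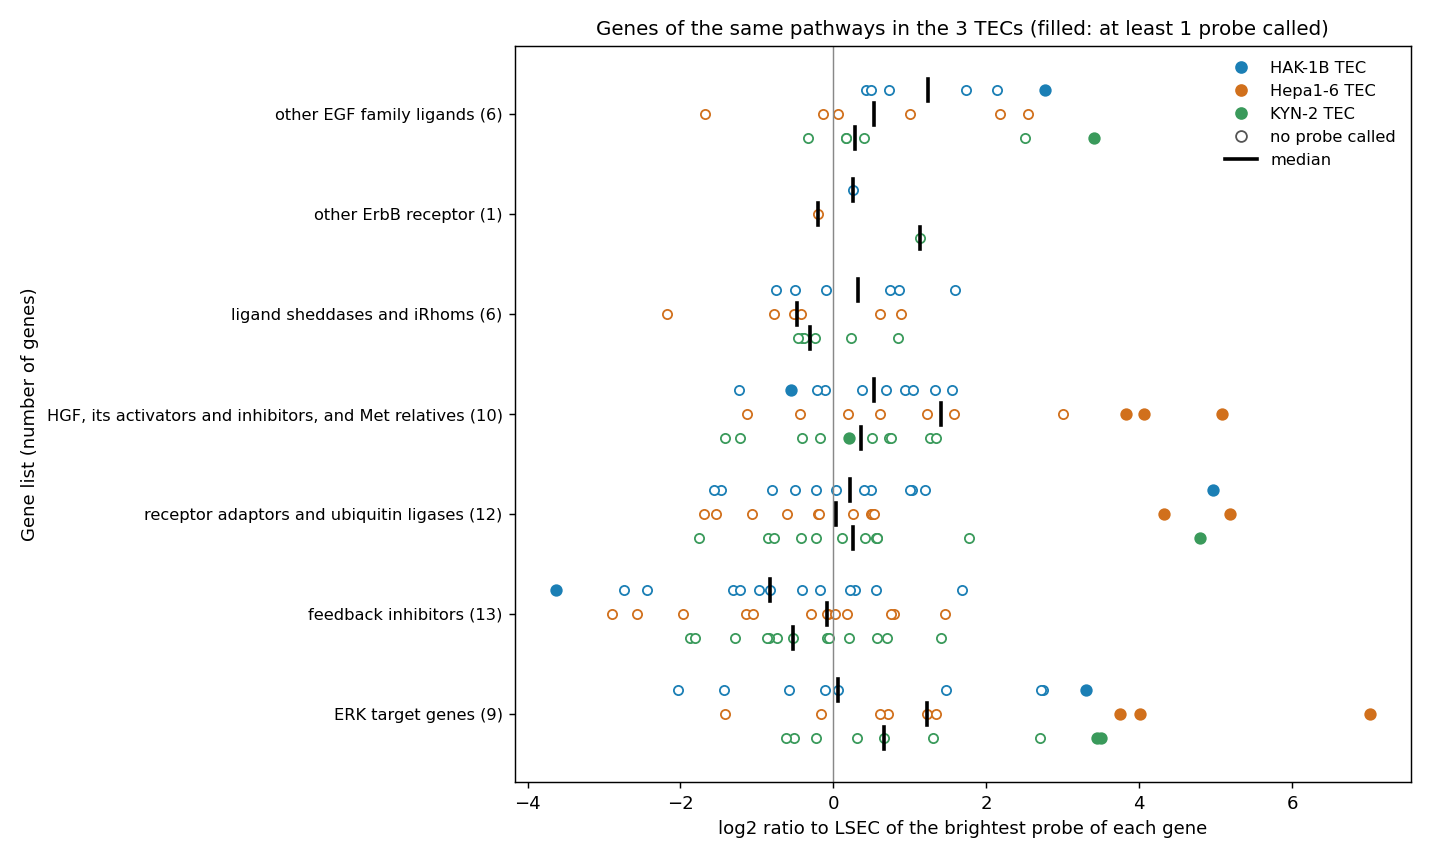
Log2 ratio to LSEC (horizontal axis) of the brightest probe of each gene in 7 lists (vertical axis, with the number of genes) for the 3 TECs. Filled markers have at least 1 probe called, and black bars are medians of a list. Eps8 lies apart from its list in all 3 TECs (4.97, 5.19 and 4.80), and the feedback inhibitors have medians of -0.82, -0.09 and -0.53.

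The genes most like Areg, Met and Egfr across the 5 arrays were found among 27055 genes by the root mean square difference of their centered log2 signals, which is a description of 5 points that share the LSEC array. The nearest to Areg were Pxylp1 (0.10), Sept5 (0.28), Tnfrsf12a (0.36), S100a6 (0.38) and 2210011C24Rik (0.39). Tnfrsf12a, the receptor of the cytokine TWEAK, had levels of 9.55 in LSECs, 12.55, 12.38 and 11.42 in the TECs and 14.75 in Hepa1-6 cells. The nearest to Met were Sqle (0.43), Foxa3 (0.45), Iqcg (0.47), Kif18b (0.48) and Fosl1 (0.49). The nearest to Egfr were Serpinb7 (0.21), Myo5b, Crisp1, 1700011H14Rik and Psg17. Myo5b was not well above background in KYN-2 TECs, and the other genes near Egfr were not in LSECs, HAK-1B TECs or KYN-2 TECs. Pxylp1, Sept5 and 2210011C24Rik near Areg were not well above background in LSECs. Nor were Foxa3, Iqcg, Kif18b and Fosl1 near Met.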

How the data were processed

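RNA of each sample was amplified, labelled with Cy3 and hybridized by the authors to a 60-mer mouse array with 1 colour, and Agilent Feature Extraction read the scans (version 9.5.1.1 per the labels and 10.7.1.1 per the file headers). The deposited spot values are intensity on a linear scale, background-subtracted and not normalized between arrays, with flags of 0 or 1 for each spot. The authors also deposited a table of normalized intensity values, used as an alternative. Control spots were left out, spots of 1 probe were averaged and the signals were put on the log2 scale. These log2 values were quantile normalized over 5 arrays, whereas the authors describe it by comparison. Probes of lincRNA (4460) and probes with no flag of presence on either array of a comparison were left out. The mean of a probe's log2 signal over the 5 arrays set the brightest probe of a gene. The methods call genes by size. With 1 array per condition, no test was made of single comparisons. The 3 TECs were also set against the 1 LSEC array with limma 3.58.1 (R 4.3.3), with Benjamini-Hochberg adjustment. Python 3.11.15, numpy 2.4.6, pandas 2.3.3 and matplotlib 3.10.9 did the rest. Scripts were tested on simulated data, whose changes were limited to the range of the arrays after a first simulation had given more false calls.

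Probe positions are mm9 as given on the array. Of 20 member probes, 15 had a RefSeq accession, and all 15 carried the same symbol in the RefSeq genes of GRCm38.p6. Motif shares came from RefSeq windows. Members, lists and markers were chosen with earlier results of these data known. Named genes were all members, the genes of each list called in any comparison with LSECs, otherwise up to 2 genes of a list with the largest mean ratio, and the 5 genes nearest to Areg, Met and Egfr. Feedback inhibitors that lay above LSECs in every TEC, or below in every TEC, were named as well. Alternatives were scaling to the 75th percentile, normalization by pair, the deposited table, normexp (offset 50), a flag on both arrays or no flag, no Z-score, the median over a gene's probes and each TEC left out in turn. HAK-1B follows the labels, since the methods on arrays name Huh-7 there. The number of arrays limits precision, and no probe was saturated.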

Additional observations from a re-analysis of the deposited data

Results flagged for a closer look

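On its brighter probe, Tgfa was above LSECs in Hepa1-6 TECs (a log2 ratio of 0.69) and below them in HAK-1B TECs (-1.77) and KYN-2 TECs (-1.57), which is a difference of 2.45 and 2.26 between the TECs. The dimmer probe was below LSECs in all 3 TECs (HAK-1B -1.98, Hepa1-6 -0.75 and KYN-2 -1.21). On its brightest probe, Egfr was above LSECs in Hepa1-6 TECs (2.69) and below them in KYN-2 TECs (-0.86), a difference of 3.55. For Egfr in KYN-2 TECs, this direction was that of the brightest probe only. The coding probe was at least 1.42-fold higher in KYN-2 TECs than in LSECs, and the median over the probes was 0.29. Tgfa and Egfr stood out because, on the brightest probes, the TECs moved in opposite directions relative to the same LSEC array. For Tgfa, only the dimmer probe was assigned to a RefSeq transcript, and on it the TECs did not move in opposite directions. With 1 array for each condition, the differences were not tested.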

How the results depend on the processing

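Without a Z-score, the ratio alone called 7 members in HAK-1B TECs, 8 in Hepa1-6 TECs, 9 in KYN-2 TECs, 9 in Hepa1-6 cells and 8 in Hepa1-6 TECs against Hepa1-6 cells. With scaling to the 75th percentile or normalization by pair, 1 member (Met) was called in Hepa1-6 TECs. In Hepa1-6 TECs against Hepa1-6 cells, normexp called 2 members and the filter for both arrays above background called 2. A further setting, chosen after seeing the data, asked every probe of a gene to pass. It called 2 members in HAK-1B TECs (Areg, Ereg), 1 in Hepa1-6 TECs (Areg) and 0 in Hepa1-6 TECs against Hepa1-6 cells. In KYN-2 TECs and in Hepa1-6 cells it called 2 (Areg, Met). Areg and Ereg have 1 probe each, so for them the setting asked nothing more. With normexp, HAK-1B TECs gave Areg, Hbegf and Erbb2, and KYN-2 TECs gave Erbb3, Met and Errfi1. Of 240 log2 ratios under the other settings, 205 stayed within 1.5-fold and 35 moved, and 7 changed sign. The deposited table gave 50 of them and moved 0, but it was nearly the same as the values used here (r of 0.9998). Those that moved were 18 of 50 with normexp, 12 of 40 with the median over probes, 5 of 50 with scaling and 0 of 50 by pair. Limma passed no probe in any setting, leaving out each TEC in turn included, with 2013 to 6234 probes at an unadjusted p under 0.05 and a smallest adjusted p from 0.0576 to 0.982. Without Hepa1-6 TECs, the mean log2 ratio of the TECs went from 0.45 to -0.67 for Egfr and from 0.40 to -0.08 for Btc. Slide as a block could not be fitted because no slide held both groups. No paired analysis was possible because there was 1 array per condition. Low signal limits Met, Ereg, Btc and the dimmer Egfr and Erbb3 probes to bounds.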
